A study of Mus musculus with 3 samples.

Results

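The genes described here are the membrane carriers of amino acids, and of related small molecules, that belong to the solute carrier families SLC1, SLC3, SLC6, SLC7, SLC36, SLC38 and SLC43. They were taken by symbol from the platform annotation of the array, and 60 of the 19938 genes with a probe set of their own matched. Expression was measured in cultured peritoneal macrophages on 3 Affymetrix arrays, 1 per condition, each hybridised with RNA pooled from 3 samples. All cells came from male Angptl4-/- mice of strain C57Bl/6J, whose age is not given in the sources used here, so every condition shares the lack of Angptl4. The macrophages had been drawn into the peritoneal cavity by 4% thioglycollate, a sterile irritant, 3 days before collection. Adherent cells were kept in culture for 2 days. They were then exposed for 6 h to phosphate-buffered saline (PBS), to intralipid, an emulsion of triglyceride droplets, at 0.5 mM triglyceride, or to the same intralipid with ANGPTL4, a secreted inhibitor of lipoprotein lipase. In that last group recombinant mouse ANGPTL4 at 2.5 µg/mL was given 1.5 h ahead of the lipid. Whether the PBS and intralipid cultures had a mock pre-incubation is not given in the sources used here.

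Amino acids cross membranes through carriers that either exchange one substrate for another or draw on sodium or proton gradients. Exchangers of the SLC7 family are light chains that reach the cell surface only when linked to a heavy chain of the SLC3 family. Several of these carriers are known targets of ATF4, the transcription factor that cells use to answer amino acid shortage and other stresses. In macrophages, cystine uptake feeds glutathione synthesis, and arginine uptake supplies arginase and nitric oxide synthase.

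The deposited values are log2 expression values, so a difference of 1 is 2-fold. With 1 array per condition there is no estimate of the spread between cultures and no test, so a gene called higher or lower is so on these arrays only. A gene is counted where 2 arrays differed at least 2-fold and the higher value reached the expression floor. For each array that floor was the middle value over its probe sets with 1 gene symbol, which came to a log2 value of 5.00, 4.98 and 4.99 on the PBS, intralipid and ANGPTL4 arrays. Where 3 values are given in a row, they are log2 values in that order. RNA from a culture does not tell a change in the number of cells of a type from a change in RNA per cell.

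Macrophage markers (13 of 14 measured past the floor) had a median log2 value of 10.36, 10.65 and 10.64. Single markers passed 2-fold. Cd14, a co-receptor for endotoxin, was 4.29-fold higher with intralipid and 2.40-fold higher with ANGPTL4 than with PBS. The scavenger receptor Msr1 was 2.30-fold higher with ANGPTL4 than with intralipid. Fcgr1, an Fc receptor, was 2.01-fold lower with ANGPTL4 than with PBS. Markers of T and NK cells (0 of 10), mast cells (0 of 9) and erythroid cells (0 of 3) stayed below the floor. Fibroblast markers were past the floor in 6 of 8 cases, and their summed linear signal stayed between 2398 and 2423. The summed signals were 420, 418 and 416 for neutrophil markers (2 of 11 past the floor), 611, 540 and 538 for B cell markers (1 of 8), 221, 197 and 221 for eosinophil markers (1 of 5) and 204, 195 and 177 for mesothelial markers (2 of 8). Resident peritoneal macrophage markers (5 of 7) summed to 860, 983 and 1277, mostly through F10 (9.23, 9.45 and 9.98), while Gata6 (6.49, 6.65 and 6.43) and Icam2 (5.31, 5.17 and 5.01) were lowest with ANGPTL4. Dendritic cell markers (1 of 7) summed to 115, 136 and 114 through Clec9a, which only reached the floor with intralipid (3.44, 5.00 and 3.32), and the other 6 had identical values on all arrays. The part of these single genes' cell types in the results was not tested.

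Of the 60 transporter genes, 24 were past the floor on all 3 arrays and 36 were below it on all 3. No transporter passed on some arrays only. The genes below the floor included 6 of the 7 members of the SLC1 family, which holds the glutamate carriers of brain, and 14 of the 18 SLC6 genes, among them carriers of monoamines, GABA and amino acids. Their log2 values ran from 2.57 to 4.54, and the largest range over the arrays was 0.11 (Slc1a1). Slc1a4 (4.48) and Slc43a1 (4.48) belonged to this group, as did Slc3a1, the heavy chain of the renal cystine carrier (3.40). The SLC7 light chains below the floor were Slc7a9, Slc7a10, Slc7a12, Slc7a13 and Slc7a15, and the others of that family were Slc7a3, Slc7a4 and Slc7a14. From the remaining families, Slc36a3, Slc38a3, Slc38a4, Slc38a5, Slc38a8 and Slc38a11 were below it.

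**Figure D1:**
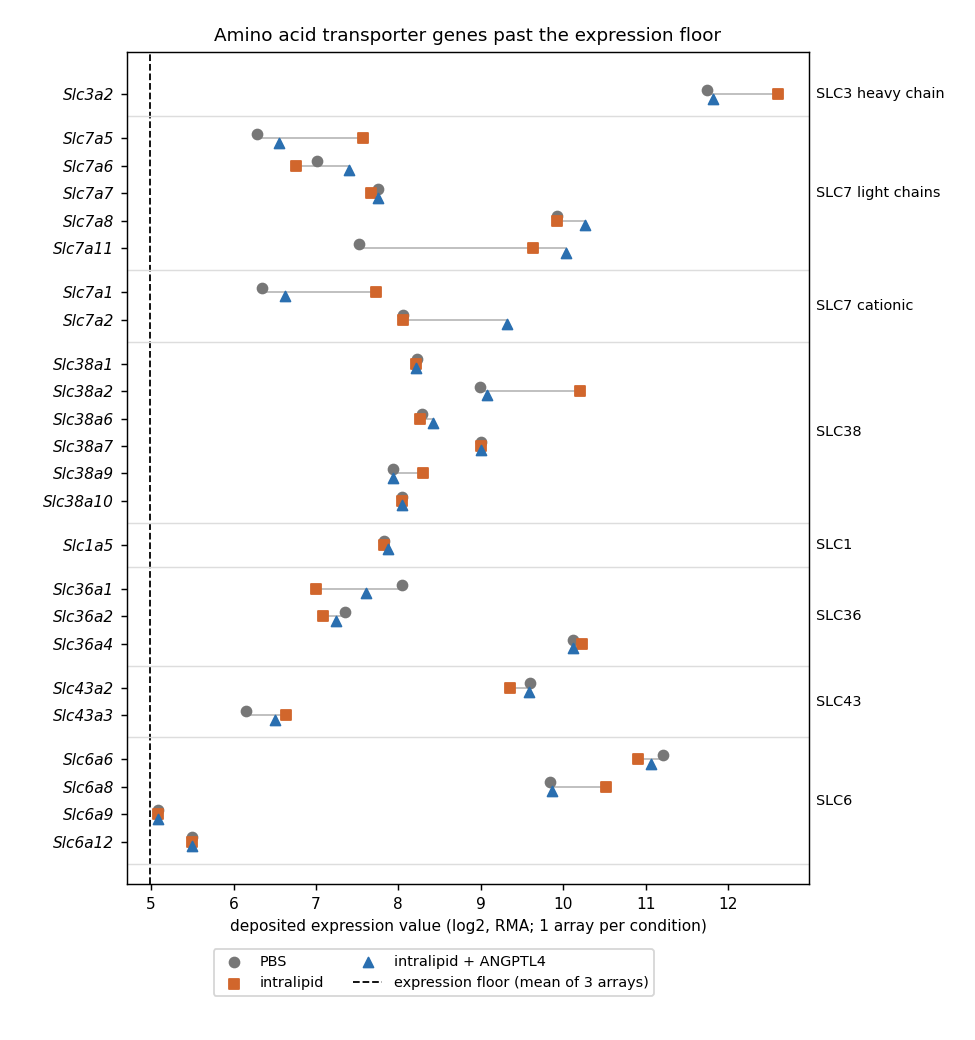
Deposited log2 expression values (x axis) of the 24 transporter genes past the floor, with a point for each of the 3 arrays (circle PBS, square intralipid, triangle intralipid plus ANGPTL4) and the floor as a dashed line. Levels of different genes come from different probes and are not to be ranked. Slc3a2, Slc7a5, Slc7a1, Slc38a2 and Slc6a8 stand apart on the intralipid array, Slc7a2 on the ANGPTL4 array and Slc7a11 on the PBS array.

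Against PBS, 4 transporter genes were at least 2-fold higher with intralipid and 1 was at least 2-fold lower. That is 16.7% and 4.17% of the 24 genes past the floor, where 2.52% and 1.33% of all 10018 genes past it on either array were higher and lower by that rule. With ANGPTL4 against intralipid alone, 1 transporter was higher and 3 were lower (4.17% and 12.5%), against 2.53% and 2.30% of 10025 genes. With ANGPTL4 against PBS, 2 were higher and 0 lower (8.33% and 0%), against 0.843% and 0.0402% of 9960 genes. The genes so counted numbered 6 in all, namely Slc7a11, Slc7a5, Slc7a1, Slc7a2, Slc38a2 and Slc36a1. Each array enters 2 of the 3 comparisons, so these counts are not independent of each other. The median difference of the 24 genes was 0.00, 0.00 and 0.02 in the 3 comparisons, and that of all genes 0.00 in each. Such a signed median does not show how far single genes moved.

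The cystine and glutamate exchanger had the largest difference of the transporters. Slc7a11 (probe set 10498024) encodes xCT, the light chain that takes up cystine for glutathione synthesis in exchange for glutamate. The PBS array gave it a log2 value of 7.52, the intralipid array 9.63 and the array with ANGPTL4 10.03. It was therefore low on the PBS array and high on both arrays with intralipid. The difference was 4.31-fold between intralipid and PBS, which ranked 63 from the top among 10018 genes. Between intralipid plus ANGPTL4 and PBS it was 5.69-fold, which ranked 8 among 9960 genes. The array with ANGPTL4 lay 1.32-fold above that with intralipid alone, a log2 difference of 0.40 beside a robust SD over all genes of 0.23. Of the 5 transporters counted between intralipid and PBS, it was the only gene whose value with ANGPTL4 lay at or beyond the intralipid level, while the other 4 lay between their PBS and intralipid values.

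Its heavy chain followed another course. Slc3a2 (probe set 10465772), the CD98 heavy chain shared by xCT and the large neutral amino acid exchangers, stood at 11.74, 12.61 and 11.82. The intralipid array was the high value, and the other two lay within 0.08 of each other. At 1.84-fold higher with intralipid and 1.73-fold lower with ANGPTL4, it stayed short of the 2-fold rule. Slc7a5 (probe set 10582275) encodes LAT1, the light chain that exchanges leucine and other large neutral amino acids. Its values were 6.28, 7.57 and 6.55, which is 2.44-fold higher with intralipid than with PBS and 2.03-fold lower again with ANGPTL4. Here too the intralipid array was the high value, and the array with ANGPTL4 lay 1.20-fold above PBS.

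The other light chains past the floor did not share that shape. Slc7a6, an exchanger of cationic for neutral amino acids, had log2 values of 7.01, 6.76 and 7.40, lowest with intralipid alone and 1.55-fold higher with ANGPTL4. Slc7a8, which encodes LAT2, a second exchanger of neutral amino acids, stood at 9.92, 9.92 and 10.27, with the ANGPTL4 array 1.28-fold above the others. Slc7a7 stood at 7.75, 7.67 and 7.75, differences of at most 1.06-fold. Among the light chains past the floor, then, Slc7a5 was highest with intralipid alone, and Slc7a6, Slc7a8 and Slc7a11 were highest with ANGPTL4.

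The pair of arginine carriers past the floor differed on different arrays. Slc7a1 (probe set 10535852) encodes CAT1, a carrier of arginine, lysine and ornithine found in most cells. Its log2 values were 6.34, 7.73 and 6.62, so that the intralipid array was high, by 2.62-fold over PBS and 2.16-fold over the array with ANGPTL4. Slc7a2 (probe set 10571444) encodes CAT2, an arginine carrier known to be induced in activated macrophages. It had a log2 value of 8.06 on both the PBS and the intralipid array, identical to 6 decimals, and 9.32 with ANGPTL4. It was thus 2.38-fold higher with ANGPTL4 than in either other condition. Against intralipid it ranked 127 from the top of 10025 genes, and against PBS 51 of 9960. Of all genes past the floor, 32% had identical values on the PBS and intralipid arrays. Whether the summary of probes into probe sets produced such equal values was not tested. Of the 5 resident macrophage markers past the floor, 1 was higher and 2 were lower with ANGPTL4 than with intralipid alone. Their median difference was 0.00. Against PBS, 3 were higher and 2 lower with ANGPTL4, with a median of 0.23. Of all genes, 46.5% were higher and 23.1% lower against intralipid, and 35.5% and 24.5% against PBS. The part of such cells in the Slc7a2 values was not tested.

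The sodium-coupled SLC38 family carries glutamine and other small neutral amino acids. Slc38a2 (probe set 10431894) encodes SNAT2, a carrier known to rise when cells are starved of amino acids. Its log2 values were 8.99, 10.21 and 9.07. The intralipid array was again the high value, 2.33-fold above PBS and 2.20-fold above the array with ANGPTL4, and the latter lay 1.06-fold above PBS. Slc38a9, a lysosomal carrier that reports arginine to mTORC1, was 1.29-fold higher with intralipid than on the other arrays (7.94, 8.30 and 7.94). Its second probe set had the same value on all 3 arrays (6.22), so the probe sets disagree on that difference. Slc38a1, a glutamine carrier, stood at 8.23, 8.21 and 8.21, and Slc38a6 at 8.29, 8.26 and 8.42. Slc38a7, a lysosomal glutamine carrier, and Slc38a10 each had an identical value on all arrays (8.05 for Slc38a10). Slc1a5, the ASCT2 exchanger of glutamine and the only SLC1 gene past the floor, stood at 7.83, 7.83 and 7.87.

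A single transporter was counted as lower with intralipid. Slc36a1 (probe set 10376216) encodes PAT1, a proton-coupled carrier of small amino acids found on lysosomes and at the cell surface. On the PBS array it stood at 8.04, on the intralipid array at 7.00 and with ANGPTL4 at 7.61. The intralipid array was the low value, 2.05-fold below PBS, and the array with ANGPTL4 lay 1.53-fold above it but 1.34-fold below PBS. Slc36a2 had the same order at a smaller size (7.35, 7.08 and 7.24), and Slc36a4 stood at 10.12, 10.23 and 10.12. In the SLC43 family, Slc43a2, which encodes the neutral amino acid carrier LAT4, stood at 9.60, 9.35 and 9.58. Slc43a3, which carries purine nucleobases and not amino acids, stood at 6.15, 6.64 and 6.50, or 1.41-fold higher with intralipid.

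The SLC6 genes past the floor mostly carry other solutes. Slc6a8, the creatine carrier, stood at 9.84, 10.52 and 9.87. It was 1.61-fold higher with intralipid than with PBS and 1.57-fold lower again with ANGPTL4, the same shape as Slc3a2 at a smaller size. Slc6a6, the taurine carrier, was lowest with intralipid (11.21, 10.91 and 11.07). The glycine carrier Slc6a9 (5.08) and the betaine carrier Slc6a12 (5.49) had 1 value each on all arrays, close to the floor. In all, 4 of the 24 genes past the floor and 30 of the 36 below it were identical on all 3 arrays. Identical values were also common among all genes past the floor (24.9%).

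**Figure D2:**
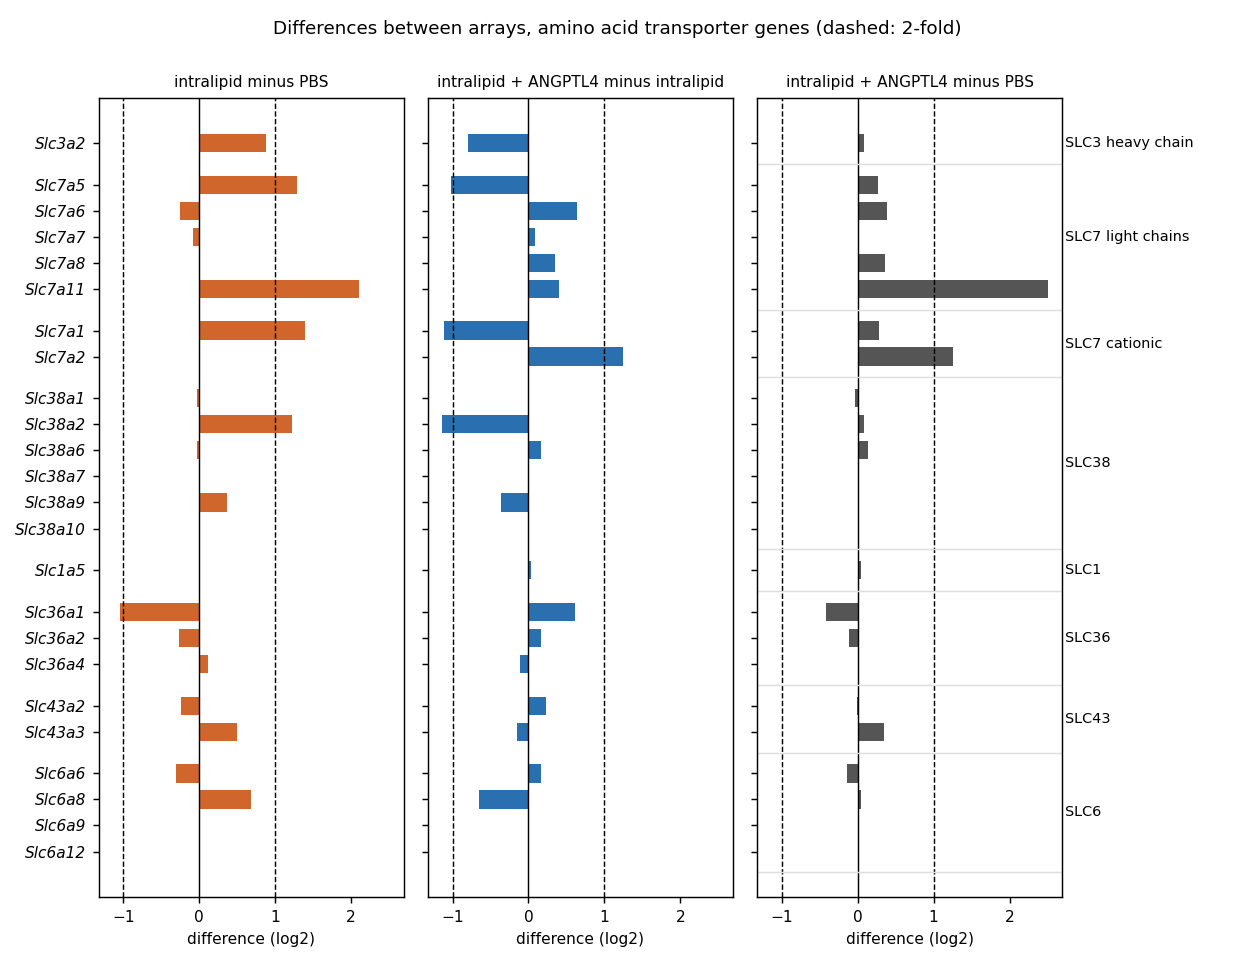
Log2 differences (x axis) of the 24 transporter genes past the floor in the 3 comparisons, as bars from 0, with dashed lines at 2-fold. Slc7a5, Slc7a1 and Slc38a2 pass the lines on opposite sides in the first and second panels, Slc7a2 passes in the panels that set ANGPTL4 against either array, and Slc7a11 in those against PBS.

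The size of these differences can be read against all genes past the floor. Their robust SD (from the central 68% of genes) was 0.20 for intralipid against PBS, 0.23 for ANGPTL4 against intralipid and 0.10 for ANGPTL4 against PBS. This is a spread over genes and not over cultures. In the first comparison 10 transporters were higher, 8 lower and 6 identical, with a mean of 0.26 beside a median of 0.00, where 23.5% of all genes were higher and 44.5% lower. In the second, 11 were higher, 8 lower and 5 identical (mean -0.05), against 46.5% and 23.1% of all genes. In the third, 14 were higher, 5 lower and 5 identical (mean 0.21), against 35.5% and 24.5%. A difference of at least 1.5-fold was reached by 7, 8 and 2 of the 24 transporters. The share of all genes at that threshold was not computed.

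**Figure D3:**
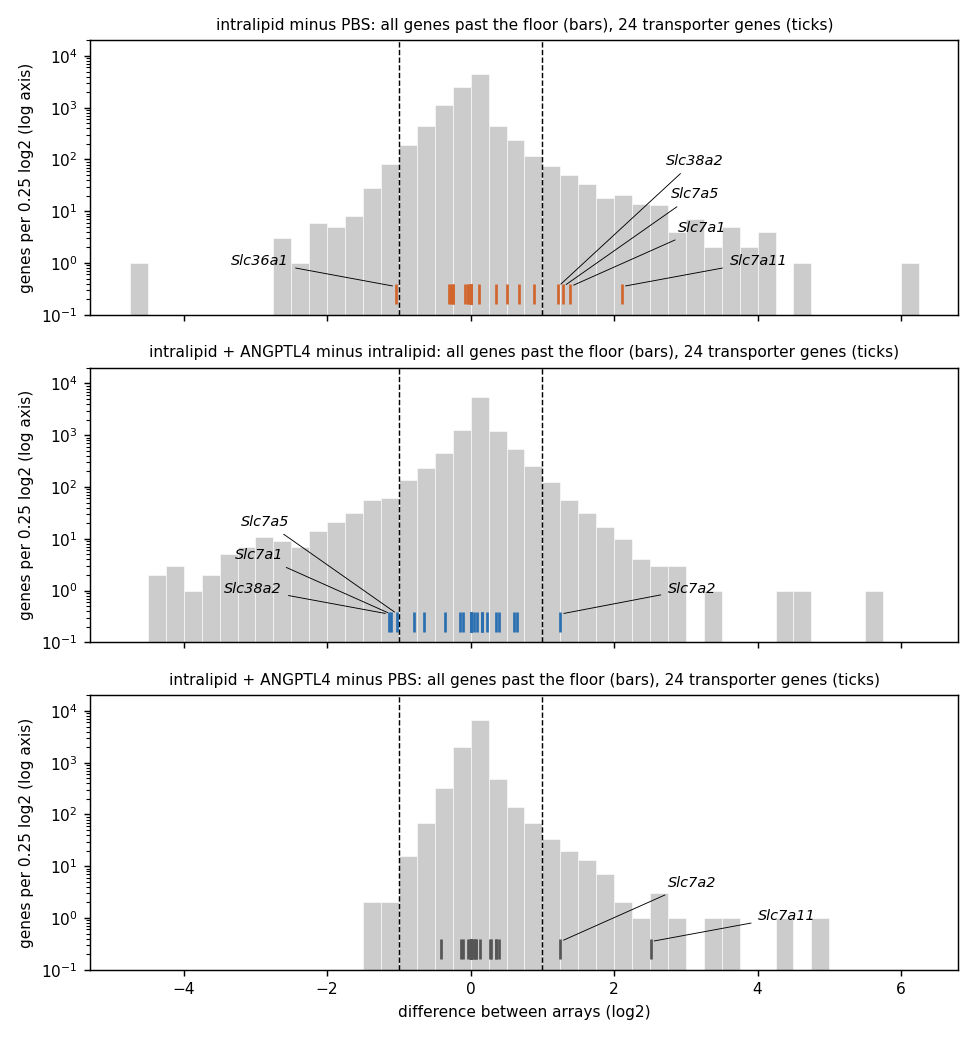
Log2 differences between arrays (x axis) over all genes past the floor (bars, number of genes per bin of 0.25, log axis) and for the 24 transporter genes (ticks), with dashed lines at 2-fold. Named are the 6 transporters past the lines, and of these Slc7a11 lies farthest out in the panels against PBS, at 2.11 and 2.51.

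Promoter sequences were available in the RefSeq table for 43 of the 60 genes, as windows of 250 bases before and 50 bases after a transcript start (build GRCm38.p6), and for 16 of the 24 genes past the floor. Slc7a2 and Slc7a5 had no entry. The windows of the other transporters counted at 2-fold, and of the shared heavy chain Slc3a2, are shown because these genes differed most between the arrays. They are written 5′ to 3′ on the strand of the gene, and capitals mark every match, on either strand, to 1 of 4 motifs: TGATGNAA (C/EBP-ATF response element), TGANTCA (AP-1 element), TGACNNNGC (core of the antioxidant response element) and ACGTG (core of the hypoxia response element, which also lies in the E-box CACGTG). Slc7a1 has 2 starts in the table, and the window without any match is not shown.
Slc7a11, chr3:50443564-50443863, minus strand: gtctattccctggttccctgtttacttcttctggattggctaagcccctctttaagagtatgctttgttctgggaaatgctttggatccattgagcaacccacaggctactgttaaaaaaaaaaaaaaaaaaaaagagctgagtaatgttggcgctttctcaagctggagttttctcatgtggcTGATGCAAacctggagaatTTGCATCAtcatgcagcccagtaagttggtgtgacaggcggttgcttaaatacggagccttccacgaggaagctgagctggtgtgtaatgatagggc
Slc3a2, chr19:8713848-8714147, minus strand: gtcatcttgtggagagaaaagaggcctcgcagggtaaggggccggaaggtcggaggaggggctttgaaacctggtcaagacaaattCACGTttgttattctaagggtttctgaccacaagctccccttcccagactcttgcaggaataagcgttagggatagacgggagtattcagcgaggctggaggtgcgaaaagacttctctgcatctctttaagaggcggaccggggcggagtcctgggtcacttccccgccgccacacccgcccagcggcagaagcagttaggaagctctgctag
Slc7a1, chr5:148399855-148400154, minus strand: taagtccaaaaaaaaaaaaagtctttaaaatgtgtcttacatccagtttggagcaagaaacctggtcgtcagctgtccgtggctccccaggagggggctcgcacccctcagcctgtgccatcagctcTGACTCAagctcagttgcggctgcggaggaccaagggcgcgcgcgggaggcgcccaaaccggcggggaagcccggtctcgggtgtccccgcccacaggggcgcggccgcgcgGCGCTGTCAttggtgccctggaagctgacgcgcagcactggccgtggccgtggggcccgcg
Slc38a2, chr15:96699679-96699978, minus strand: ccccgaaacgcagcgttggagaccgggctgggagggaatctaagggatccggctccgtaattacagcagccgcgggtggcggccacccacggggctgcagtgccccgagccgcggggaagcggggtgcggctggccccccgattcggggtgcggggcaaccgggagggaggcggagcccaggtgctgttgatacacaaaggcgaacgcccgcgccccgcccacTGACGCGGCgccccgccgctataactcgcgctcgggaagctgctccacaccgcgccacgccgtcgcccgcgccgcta
Slc36a1, chr11:55204090-55204389, plus strand: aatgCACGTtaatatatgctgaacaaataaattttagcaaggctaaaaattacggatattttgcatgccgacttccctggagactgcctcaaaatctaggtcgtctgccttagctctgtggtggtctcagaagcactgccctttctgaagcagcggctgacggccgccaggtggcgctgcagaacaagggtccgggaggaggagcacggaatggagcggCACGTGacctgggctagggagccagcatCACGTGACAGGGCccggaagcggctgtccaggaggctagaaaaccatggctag

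The Slc7a11 window holds TGATGNAA at 2 places, from -66 to -59 on the strand of the gene and from -47 to -40 on the other strand, counted from the transcript start. Of all 32851 windows, 3.97% hold that motif. Among the 43 transporter genes it was also found for Slc7a7, which differed by at most 1.06-fold between arrays, and for Slc1a4 and Slc6a21, which were below the floor. The windows of Slc3a2, Slc7a1, Slc38a2 and Slc36a1 do not hold those letters. The Slc7a1 window has the palindromic TGANTCA from -123 to -117, a motif in 7.81% of all windows, and TGACNNNGC from -11 to -3. TGACNNNGC, in 12.4% of all windows, is also in those of Slc38a2 (from -27 to -19) and Slc36a1 (from 2 to 10). ACGTG, in 19.6% of all windows, occurs once for Slc3a2 and at 3 places for Slc36a1, where it is part of the E-box at 2 of them and where the last of these overlaps the TGACNNNGC match. These are matches of letters and do not show that a factor binds. A window without a match does not show that the gene lacks the motif elsewhere, as only these windows were searched.

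Genes that use or sense amino acids were followed in 6 lists that leave the transporters out. The lists were chosen with earlier results of these data known, so their counts are descriptions and no independent support. Over all genes past the floor, 2.52% were at least 2-fold higher and 1.33% lower with intralipid than with PBS. With ANGPTL4 against intralipid, 2.53% were higher and 2.30% lower. Sesn2 is in the lists of the ATF4 pathway and of mTORC1 sensing, and Chac1 in those of the ATF4 pathway and of glutathione. In the ATF4 pathway and amino acid response list, 8 of 19 genes past the floor were at least 2-fold higher with intralipid than with PBS and 0 lower, and 6 were lower and 0 higher with ANGPTL4 than with intralipid. The medians were 0.43 and -0.43. Atf4 itself had log2 values of 8.87, 9.94 and 8.99, that is 2.11-fold higher with intralipid. The largest differences were in Trib3, an inhibitory pseudokinase (5.59, 8.25 and 5.42), Ddit3, which encodes CHOP (6.78, 9.21 and 6.55), Sesn2, a leucine sensor (5.76, 7.99 and 5.71), and in the first comparison Ppp1r15a, a phosphatase subunit (6.07, 8.26 and 6.53). These genes were high on the intralipid array alone, as were Slc7a5, Slc7a1 and Slc38a2, whereas Slc7a11 was not back near its PBS value with ANGPTL4.

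In the amino acid synthesis list, 3 of 15 genes past the floor were higher with intralipid than with PBS and 0 lower. The shares of all genes were 2.52% and 1.33%, and the median of the list was 0.18. The higher genes were Mthfd2, a mitochondrial enzyme of folate metabolism (3.20-fold), Asns, asparagine synthetase (2.27-fold), and Got1, aspartate aminotransferase (2.25-fold). With ANGPTL4, Got1 was 3.32-fold and Mthfd2 2.87-fold below its intralipid value, the 2 genes of the list past the rule in that comparison. Phgdh, which opens serine synthesis, was 1.35-fold higher with intralipid. In the list of amino acid sensing by mTORC1, 2 of 30 genes were higher with intralipid than with PBS and 1 was lower, beside the same shares. The higher genes were Sesn2 (4.68-fold) and the arginine sensor Castor1 (2.09-fold), and the lower was Sesn1 (5.00-fold). All 3 were past the rule in the opposite direction with ANGPTL4, and the median of the list was 0.00 in both comparisons.

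Cystine imported by xCT feeds glutathione synthesis, and the list for that pathway also holds genes of glutathione breakdown and of antioxidant defence. The synthesis enzymes Gclc (8.23, 8.17 and 8.34) and Gss (6.33, 6.31 and 6.34) were nearly level, unlike Slc7a11. With intralipid against PBS, 7 of the 9 genes past the floor were lower by any amount (44.5% of all genes) and 1 was at least 2-fold higher, Chac1, which breaks glutathione down (2.91-fold). With ANGPTL4 against intralipid, 8 of 9 were higher by any amount (46.5% of all genes), 2 of them at least 2-fold, and the median was 0.49. The ninth, Chac1, had the largest difference of the list and was 3.09-fold lower. Gclm, the modifier subunit of the first enzyme of the pathway, had log2 values of 8.99, 8.42 and 9.69, which is 2.41-fold above the intralipid value. Hmox1, haem oxygenase (10.95, 10.36 and 11.37), was 2.02-fold higher and Txnrd1, thioredoxin reductase (10.22, 9.92 and 10.90), 1.97-fold higher. Both encode enzymes of antioxidant defence and not of glutathione synthesis. These 3 genes were lowest on the intralipid array and highest with ANGPTL4, and Slc7a11, also highest with ANGPTL4, was lowest with PBS.

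In the arginine use list, 3 of 9 genes past the floor were higher with intralipid than with PBS and 0 lower. The shares of all genes were 2.52% and 1.33%, and the median of the list was -0.05. Odc1, which makes putrescine from ornithine, had log2 values of 8.68, 11.35 and 8.78, or 6.37-fold higher with intralipid and 5.92-fold lower with ANGPTL4, the only gene of the list past the rule in the second comparison. Arg1, the cytosolic arginase, stood at 7.93, 8.99 and 8.64, and Arg2, the mitochondrial arginase, at 4.42, 6.07 and 5.22. Arg2 was below the floor with PBS, and its 3.15-fold difference between intralipid and PBS is 2.10-fold against the floor. Nos2, the inducible nitric oxide synthase, was below the floor at 4.20 on each array. Gatm, which uses arginine for creatine synthesis, stood at 7.75, 7.33 and 8.14, highest with ANGPTL4 as Slc7a2 was, but lower with intralipid than with PBS.

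Carriers outside the SLC families above, most of them of amino acids or peptides, mostly stayed within 2-fold. Of 18 such genes past the floor, 0 were higher and 1 was lower with intralipid than with PBS (2.52% and 1.33% of all genes). That gene was Slc17a5, a lysosomal carrier of sialic acid and acidic amino acids (9.59, 8.56 and 9.25). Short of the rule, Slc25a12 (8.89, 8.07 and 8.62) was 1.76-fold lower and Slc25a13 (8.44, 7.98 and 8.02) 1.38-fold lower. With ANGPTL4 against intralipid, none of the 18 passed the 2-fold rule, and the largest difference was in Tmem104, a putative carrier (1.64-fold lower). With ANGPTL4 against PBS, 1 of the 18 was higher and 0 were lower (0.843% and 0.0402% of all genes). That gene was Slc16a10, which encodes TAT1, a carrier of aromatic amino acids. Its log2 values were 7.94, 8.38 and 9.03, a 2.13-fold difference, with the highest value on the array with ANGPTL4 as for Slc7a2 and Slc7a11. Slc15a3, a lysosomal carrier of histidine and peptides, was 1.49-fold higher with intralipid than with PBS (11.86, 12.44 and 11.88).

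**Figure D4:**
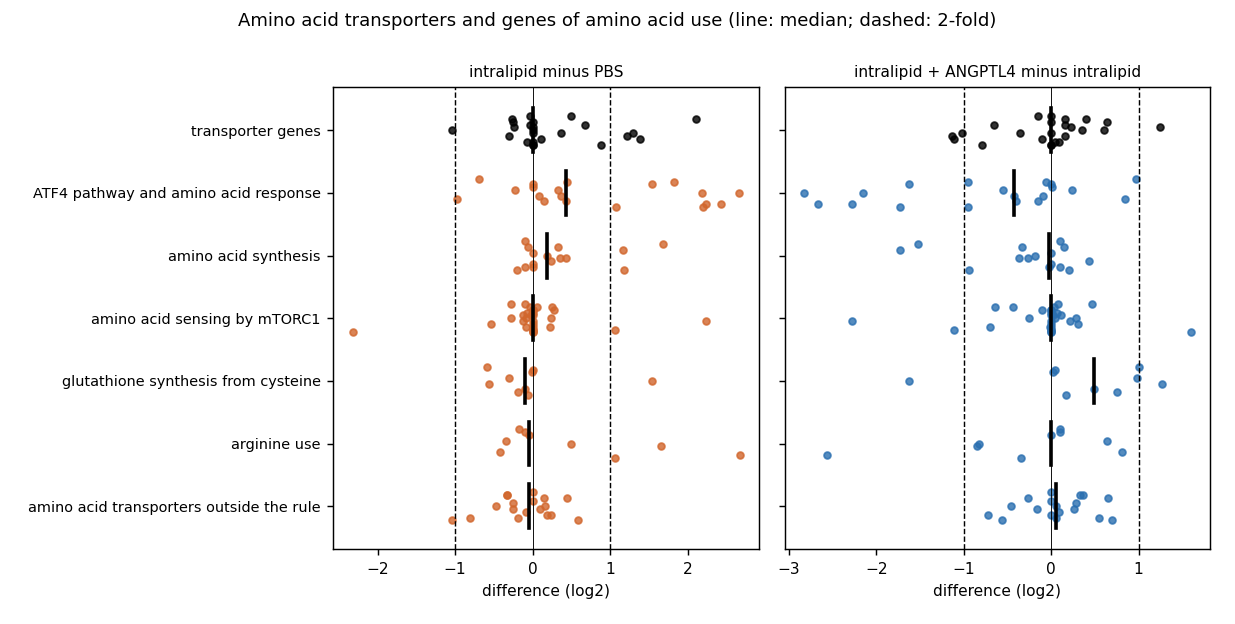
Log2 differences (x axis) of single genes past the floor (points) for the 24 transporters and the 6 lists of amino acid use, for intralipid minus PBS (left) and intralipid plus ANGPTL4 minus intralipid (right), with thick lines at the medians and dashed lines at 2-fold. The ATF4 list has medians of 0.43 and -0.43, and the glutathione list has one of 0.49 on the right, while the transporters have a median of 0.00 on either side with single genes beyond 2-fold.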

How the data were processed

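The authors deposited a table of log2 values for each probe set and array. Per the submitters' processing notes it was made with RMA, which corrects background, normalizes across arrays and summarises probes into probe sets. Its version and chip definition are not stated in the sources used here. Of 35556 probe sets, GEO's platform annotation gave 21789 1 symbol, 1621 several and 12146 none. The highest of several probe sets by mean value stood for a gene (2 transporter genes had more than 1). All 60 gene identifiers were in the RefSeq gene table.

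Values were used as deposited in Python 3.11.15, with no test, because each group has 1 array. The number of arrays limits the precision. On all arrays 41.4% of probe sets held identical values (to 6 decimals).

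Every transporter counted at 2-fold or differing by 1.5-fold is given with all values, as are Slc7a11, Slc7a2, Slc3a2, Slc7a5, Slc1a5 and Slc38a2. Up to 4 genes with the largest differences are named per list and comparison, and Atf4, Nos2, Gclc, Gss and the named cell type markers were added after their values were seen. Genes, lists and motifs were chosen with earlier results of these data known. As alternatives, the fold threshold was set to 1.5 or 3, the floor was dropped or raised to the 75th percentile, and the rest used arrays centred on their medians, quantile and cyclic loess normalization (limma 3.58.1), the mean over probe sets and the mean in place of the median. Leaving out transporters identical on all arrays was chosen after seeing the data.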

Additional observations from a re-analysis of the deposited data

How the results depend on the processing

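Every difference of a transporter of at least 0.1 (log2) kept its direction, and the calls at 2-fold did not change, under the 3 other normalizations and with the mean over probe sets. These normalizations were applied to the deposited values, which RMA had already normalized across arrays, so they do not stand for another processing of the raw data. The mean over probe sets could change only the 2 transporters with more than 1 probe set, neither of them counted at 2-fold. The counts at 2-fold were also equal with the higher floor. Dropping the floor could not change them, because transporters below it ranged by at most 0.11 (log2) over the arrays. Leaving out transporters identical on all arrays could not change them either, as such genes do not differ. The largest move of a transporter under another normalization was 0.07 (log2). With a threshold of 1.5-fold, 6 transporters were higher and 1 lower with intralipid than with PBS. With ANGPTL4 against intralipid, 3 were higher and 5 lower at that threshold. Shares over all genes were not computed at 1.5-fold or 3-fold. With a threshold of 3-fold, 1 was higher and 0 lower with intralipid than with PBS, 0 were higher and 0 lower with ANGPTL4 than with intralipid, and 1 was higher with ANGPTL4 than with PBS. The mean of the 24 differences, in place of the median, was 0.26 for intralipid against PBS and 0.21 for ANGPTL4 against PBS. A few large differences weigh on a mean and hardly on a median. With intralipid against PBS the largest were Slc7a11 (2.11), Slc7a1 (1.39), Slc7a5 (1.29) and Slc38a2 (1.22), with Slc36a1 lowest (-1.04). With ANGPTL4 against PBS they were Slc7a11 (2.51) and Slc7a2 (1.25), with Slc36a1 lowest (-0.42). Under the other settings the medians lay between -0.04 and 0.06. No paired analysis was possible because each group has 1 array. Slc7a5 (2.03-fold lower with ANGPTL4) and Slc36a1 (2.05-fold lower with intralipid) lie just inside the 2-fold threshold and Slc3a2 (1.84-fold) just outside it. For the 36 transporters below the floor, signal near background limits what could be seen.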

Other observations

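Of the neighbouring symbols that the families' naming pattern leaves out, Slc6a20a, a carrier of proline and other imino acids, had log2 values of 3.65, 3.65 and 3.50 on the PBS, intralipid and ANGPTL4 arrays, and Slc6a20b one of 4.54 on all 3 arrays, all below the floor. Slc7a6os, a gene named for its place opposite Slc7a6, was past the floor with 6.95 on all 3 arrays, while Slc7a6 itself ranged from 6.76 to 7.40. The second probe set of Slc38a1 stood at 7.33, 7.22 and 7.30, differences of at most 0.11 on the log2 scale.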
